A study of Rattus norvegicus and Mus musculus with 14 samples.

Results

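Uchl1 and Cand1 are a pair of genes on opposite sides of ubiquitin metabolism, described here on 5 probes of a cDNA array of 1152 probes. They are 2 of the 342 genes that had a probe with 1 gene symbol. The members were all probes whose single gene symbol in the platform annotation was Uchl1 (2 probes, 557 and 1074, numbered by their row on the array) or Cand1 (3 probes, 259, 271 and 895). Both genes were chosen by their difference between NMDA and control cultures in these arrays, so that difference is given as a description, with no test. The array was hybridised with RNA of 14 samples. Cultured cortical neurons of rat embryos gave 12 of them, split into a MEK set and a NOS set, each with experiments 1 and 2 and 1 array per treatment. The MEK set held cultures given the control solution (named CSS in the labels), NMDA, or NMDA together with PD98059, an inhibitor of the kinase MEK. The NOS set held the control solution, NMDA, or NMDA together with nitroarginine, an inhibitor of nitric oxide synthase. NMDA activates one class of glutamate receptors. The last 2 samples were brain cortex of 1 adult mouse with the neuronal nitric oxide synthase (nNOS) gene knocked out and of 1 adult wild-type littermate, both c57bl. Doses, times and the ages of the animals are not given in the sources used here. Each rat group had n = 2 arrays, and since the labels do not say that these came from separate cultures, p-values measure only the spread between arrays, which may be technical.

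Ubiquitin is a small protein that is attached to other proteins and often marks them for the proteasome. UCHL1 is a ubiquitin C-terminal hydrolase, an enzyme that frees ubiquitin from short adducts, and is among the most abundant proteins of neurons. CAND1 binds cullins, the scaffolds of a large family of ubiquitin ligases, when they do not carry the ubiquitin-like protein NEDD8, and helps them to exchange the adaptors that choose the substrate.

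The rat genes lie on different chromosomes and have unlike start regions. In the RefSeq annotation of rat build GRCr8, Uchl1 spans 14:41838859-41849743 and Cand1 spans 7:56566765-56604653, both on the minus strand. The windows from 250 bases before to 50 bases after the annotated start are shown because they set the genes apart by base composition. Capitals mark matches on either strand to the GC box GGGCGG and the TATA box TATAAA.
Uchl1, chr14:41849368-41849667, minus strand: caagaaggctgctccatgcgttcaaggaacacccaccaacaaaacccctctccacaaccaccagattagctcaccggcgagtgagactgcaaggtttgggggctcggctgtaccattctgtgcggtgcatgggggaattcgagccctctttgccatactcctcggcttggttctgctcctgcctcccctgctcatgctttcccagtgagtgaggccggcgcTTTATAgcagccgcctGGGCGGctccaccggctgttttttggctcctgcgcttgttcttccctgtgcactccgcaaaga
Cand1, chr7:56604604-56604903, minus strand: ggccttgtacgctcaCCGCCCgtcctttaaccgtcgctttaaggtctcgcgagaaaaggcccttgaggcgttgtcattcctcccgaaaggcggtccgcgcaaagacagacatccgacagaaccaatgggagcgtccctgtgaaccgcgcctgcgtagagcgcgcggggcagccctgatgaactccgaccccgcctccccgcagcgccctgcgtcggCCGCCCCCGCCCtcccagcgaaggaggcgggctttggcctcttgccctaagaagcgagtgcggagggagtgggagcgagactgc
The Uchl1 window held 1 GC box and 1 TATA box match, which began at positions 238 and 222 from the 5′ end of the window. The TATA box letters stand there on the opposite strand. It lies inside the gene's RefSeq record, whose outermost transcript starts farther upstream. The Cand1 window held 3 GC boxes, at 16, 217 and 223, no TATA box and 1 CCAAT box (CCAAT, at 122). Among all 33469 rat windows of this length, 33.1% held the GC box, 14.2% the TATA box and 37.5% the CCAAT box. The Cand1 window had 66.3% G and C and 33 CpG dinucleotides, and the Uchl1 window 58.7% and 14, against medians of 51.7% and 7. Neither window held the cyclic AMP response element TGACGTCA or its shorter core TGACG, which 1.83% and 21.2% of windows held. These are matches of letters only.

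The deposited values are Z-scores within each array, so a Z unit is close to the SD of that array's own probes, and folds cannot be read from them. The number of arrays limits the precision, and signal over background is unknown. The column of the control array of MEK experiment 1 stood 1 row above its probes. Moved down by 1 row, its r with the median of the 11 other rat arrays was 0.830, against 0.104 as deposited. It was used in the moved position, where it still correlated less with the other MEK arrays (r = 0.858 to 0.867 across probes) than those did with each other (0.971 to 0.995). The arrays of NOS experiment 2 stood apart from those of NOS experiment 1 (r = 0.454 to 0.617). Of the marker lists, 4 of 20 neuronal, 2 of 11 astrocyte, 1 of 7 microglial and 0 of 9 oligodendrocyte genes had a probe. The median percentile of brightness over the 12 rat arrays was 13.1 for Nefl, 42.5 for Stmn2, 54.3 for Mapt and 57.2 for Dpysl5 among the neuronal markers, 24.1 and 43.5 for both probes of the astrocyte marker Gfap, 79.2 for the astrocyte marker Glul and 62.8 for the microglial marker Csf1r. Glul thus ranked above the 4 neuronal markers. Probes differ in their own brightness, so these ranks do not measure the share of a cell type.

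**Figure D1:**
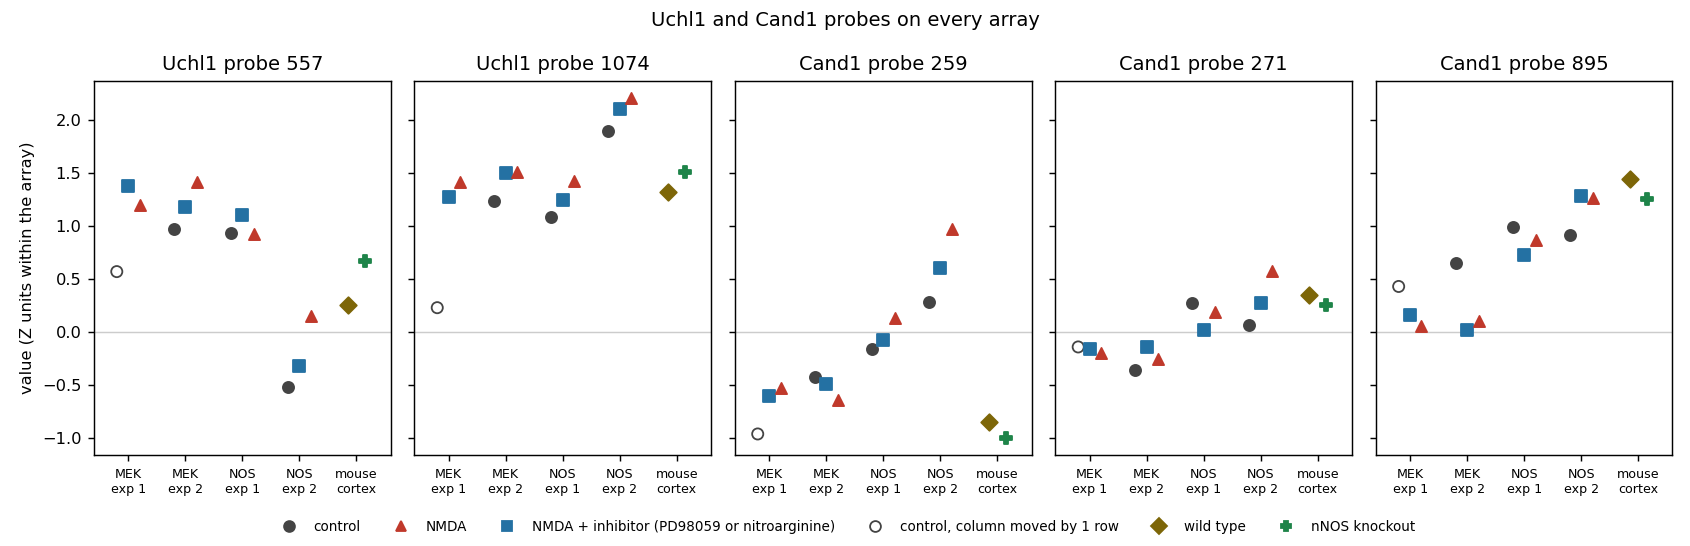
Values of the 5 probes on all 14 arrays, in Z units, with 1 point per array and 1 panel per probe. The open circle is the control array whose column was moved by 1 row. Cand1 points of the NOS experiments lie above those of the MEK experiments, and the Uchl1 probes part in NOS experiment 2.

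Uchl1 probe 1074 was bright on all rat arrays but the moved one, at percentiles 82.9 to 97.1 of the array's probes. In experiments 1 and 2 of the MEK set it stood at 0.23 and 1.23 Z units in the control cultures, at 1.41 and 1.51 under NMDA, and at 1.27 and 1.501 under NMDA with PD98059. In experiments 1 and 2 of the NOS set it stood at 1.08 and 1.89 in the controls, at 1.42 and 2.21 under NMDA, and at 1.24 and 2.10 under NMDA with nitroarginine. The NMDA array was the highest of its 3 in each of the 4 experiments and the control array the lowest. The lowest value of all, 0.23, was that of the moved column, at percentile 51.9.

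The other Uchl1 probe, 557, was also lowest in the controls of both MEK experiments, but had a far lower level than probe 1074 in NOS experiment 2. In MEK experiments 1 and 2 it was at 0.57 and 0.97 Z units in the controls, 1.20 and 1.41 under NMDA, and 1.38 and 1.18 with PD98059. In NOS experiments 1 and 2 it was at 0.93 and -0.51 in the controls, 0.93 and 0.15 under NMDA, and 1.11 and -0.32 with nitroarginine. All 3 arrays of NOS experiment 2 lay below the 9 other rat arrays. The share of all probes for which this held was not counted. Against NOS experiment 1 alone, the 3 arrays of experiment 2 all lay lower in 28.6% of probes.

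Between the NOS experiments the Uchl1 probes moved in opposite directions. From experiment 1 to 2, the mean of 3 arrays went from 0.99 ± 0.10 to -0.23 ± 0.34 on probe 557 and from 1.25 ± 0.17 to 2.07 ± 0.16 on probe 1074 (SD over the 3 treatments, n = 3). The difference was -1.21 Z units on probe 557, with a median of 0.03 among the 24 nearest probes by row, and 0.82 on probe 1074, with a median of 0.25 among its neighbours. The 3 arrays of experiment 2 all lay above those of experiment 1 in 47% of all probes and all below in 28.6%, so a shift without overlap was common. The Uchl1 probes carry different sequence records in the platform annotation. For the same gene, then, the level on this array depended on which probe was read.

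**Figure D2:**
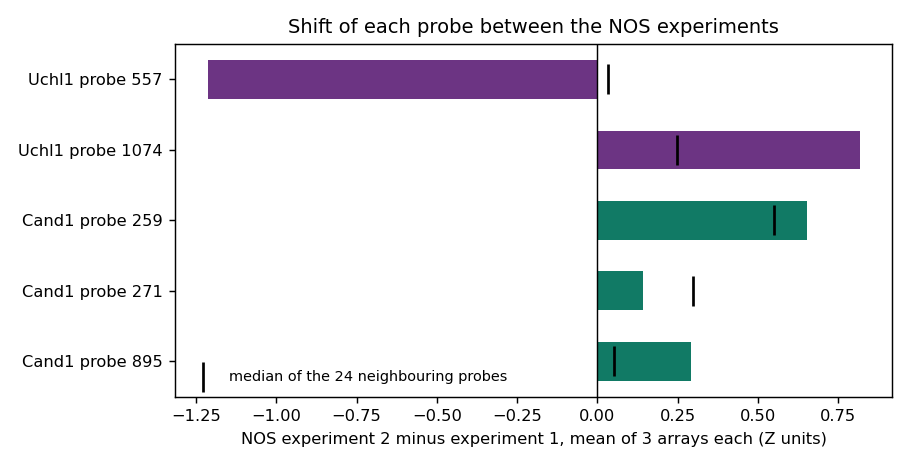
Mean of the 3 arrays of NOS experiment 2 minus that of NOS experiment 1 for each probe, in Z units (bars), with the median of the same difference over the 24 neighbouring probes (ticks). The Uchl1 probes point in opposite directions, at -1.21 and 0.82, and the Cand1 probes all point up.

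Cand1 also had probes of different brightness. Probes 271 and 895 carry the same sequence record in the platform annotation and probe 259 another, so the first pair shares a target. Probe 895 was at 0.43 and 0.65 Z units in the controls of MEK experiments 1 and 2, at 0.06 and 0.10 under NMDA, and at 0.16 and 0.02 with PD98059. In the NOS experiments it was at 0.99 and 0.91 in the controls, 0.87 and 1.27 under NMDA, and 0.72 and 1.29 with nitroarginine. The controls of the MEK set, which include the moved array, were thus the highest arrays of that set. In the NOS set the 3 treatments overlapped. The share of probes with the MEK controls highest was not counted, but NMDA arrays lay wholly below them on 20% of probes.

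Probe 271, with the same annotated sequence, varied little. It was at -0.14 and -0.35 Z units in the MEK controls, -0.20 and -0.25 under NMDA, and -0.16 and -0.14 with PD98059. In the NOS experiments it was at 0.27 and 0.07 in the controls, 0.19 and 0.58 under NMDA, and 0.02 and 0.27 with nitroarginine. In the MEK set both PD98059 arrays lay above both NMDA arrays, while the controls overlapped with each of these groups, and in the NOS set all 3 treatments overlapped.

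Probe 259 had the largest gap between the MEK and NOS means of the 3, 0.90 Z units. Its values were -0.96 and -0.42 Z units in the MEK controls, -0.53 and -0.64 under NMDA, and -0.60 and -0.49 with PD98059. In the NOS experiments they were -0.16 and 0.28 in the controls, 0.13 and 0.97 under NMDA, and -0.08 and 0.60 with nitroarginine. Within each NOS experiment the order was control, nitroarginine, NMDA from low to high, as on Uchl1 probe 1074. That order in both NOS experiments was found in 4.08% of all probes. It was noticed after the values were seen and contains the NMDA difference for which the genes were chosen, so this share is a description only. With arrays quantile-normalized the order held in both NOS experiments on probe 259 but not on Uchl1 probe 1074.

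All 3 Cand1 probes were higher on each of the 6 NOS arrays than on each of the 6 MEK arrays, which held for 14.9% of all probes. It held for the 3 probes also after quantile normalization and after removal of a running median along the rows. The means over 6 arrays of the MEK and NOS sets were -0.61 ± 0.19 and 0.29 ± 0.43 on probe 259, -0.21 ± 0.08 and 0.23 ± 0.20 on probe 271, and 0.24 ± 0.25 and 1.01 ± 0.23 on probe 895 (SD, n = 6). The separation was already there in NOS experiment 1 alone, whose 3 arrays lay above all 6 MEK arrays for 25.5% of probes. The differences of set means, 0.90, 0.44 and 0.77 Z units, compare with 0.25, -0.01 and 0.02 for the median of the neighbouring probes. The sets differ in their experiments and in all that was done to them, which cannot be told apart from any difference in Cand1 transcript. The Uchl1 probes did not separate the sets.

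By group mean, the levels of Cand1 probe 895 ran from NOS NMDA (1.07 ± 0.28 Z units, n = 2), NOS nitroarginine (1.004 ± 0.40) and NOS control (0.95 ± 0.06) through MEK control (0.54 ± 0.15) to PD98059 (0.09 ± 0.10) and MEK NMDA (0.08 ± 0.03). Neighbours in this order overlapped within the NOS set and at the lower end, and the arrays of MEK control overlapped neither of their neighbours. Probe 259 ran from NOS NMDA (0.55 ± 0.59), nitroarginine (0.26 ± 0.48) and NOS control (0.06 ± 0.31) to PD98059 (-0.55 ± 0.08), MEK NMDA (-0.59 ± 0.08) and MEK control (-0.69 ± 0.38). The last place of MEK control on probe 259 rests on the moved array (-0.96), as the other control (-0.42) was the highest MEK array. Probe 271 ran from NOS NMDA (0.39 ± 0.27), NOS control (0.17 ± 0.14) and nitroarginine (0.15 ± 0.18) to PD98059 (-0.15 ± 0.02), MEK NMDA (-0.23 ± 0.04) and MEK control (-0.25 ± 0.15). On both of these, the step between the sets was the only one between neighbouring groups at which arrays of the upper group all lay above those of the lower, apart from the step from PD98059 to MEK NMDA on probe 271. For Uchl1 probe 1074 the order was NOS NMDA (1.81 ± 0.56), nitroarginine (1.67 ± 0.61), NOS control (1.49 ± 0.57), MEK NMDA (1.46 ± 0.07), PD98059 (1.39 ± 0.16) and MEK control (0.73 ± 0.71). For probe 557 it was MEK NMDA (1.31 ± 0.15), PD98059 (1.28 ± 0.14), MEK control (0.77 ± 0.29), NOS NMDA (0.54 ± 0.55), nitroarginine (0.39 ± 1.01) and NOS control (0.21 ± 1.02). Neighbours overlapped on both Uchl1 probes, except at MEK control, whose arrays lay below those of PD98059.

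NMDA was set against control to describe the difference for which the genes were chosen. Probe 1074 of Uchl1 was higher under NMDA by 1.18 and 0.27 Z units in MEK experiments 1 and 2 and by 0.34 and 0.31 in NOS experiments 1 and 2. It thus had 1 sign in 4 of 4 experiments, as had 10.2% of all probes in this direction, or 16.4% with MEK experiment 1, which holds the moved column, left aside. With arrays quantile-normalized the 4 differences were 1.42, 0.22, 0.31 and 0.01, so the value of NOS experiment 2 was close to 0 on that scale. Probe 557 was higher by 0.63, 0.44 and 0.67 in the MEK experiments and NOS experiment 2, and at -0.005 in NOS experiment 1. In the MEK set the NMDA and control arrays did not overlap on either Uchl1 probe, which held in this direction for 24.4% of probes, and both were higher in both experiments, as were 29.3%. In the NOS set they overlapped on both, and arrays apart in this direction were found for 5.73% of probes. There probe 1074 was higher in both experiments, as were 26.4%. In bulk RNA of a culture, more transcript per cell and more cells that carry the transcript cannot be told apart.

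The Uchl1 differences of the MEK set leaned on the moved column. The mean difference was 0.73 Z units on probe 1074 and 0.54 on probe 557, and with that array left out and experiment as a block it was 0.31 and 0.34. In its deposited position the same column would have given probe 1074 a control value of 0.56 and probe 557 one of -0.93. Neuronal markers were higher under NMDA on 3 of 4 probes in each set, though on 1 of 4 in MEK experiment 2 alone. Their list mean in the NOS set was -0.14 to 0.18 Z units under NMDA and -0.20 to -0.11 in the controls, and in the MEK set -0.395 to -0.37 and -0.61 to -0.25. The microglial marker Csf1r was at 0.44 to 1.33 under NMDA and 0.36 to 0.84 in the controls of the NOS set, and at 0.37 to 0.48 and 0.46 to 0.55 in the MEK set. Astrocyte markers were higher under NMDA in the NOS set on 2 of 3 probes, with a list mean of 0.11 to 0.14 Z units under NMDA and -0.11 to 0.01 in the controls. In the MEK set 1 of 3 was higher, with -0.19 to -0.16 under NMDA and -0.20 to -0.03 in the controls. The part of these markers in the Uchl1 and Cand1 values was not tested.

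The Cand1 probes disagreed with each other under NMDA. Probe 895 was lower by 0.37 and 0.55 Z units in the MEK experiments, where its arrays did not overlap (20% of all probes in this direction), and was at -0.12 and 0.36 in the NOS experiments. Probe 259 was at 0.43 and -0.22 in the MEK experiments and at 0.30 and 0.68 in the NOS experiments. Probe 271 was at -0.06 and 0.10, then at -0.08 and 0.51. The values of MEK experiment 1 hold the moved column. With that array left out and experiment as a block, the mean MEK difference of probe 259 went from 0.11 to -0.16. That of probe 271 went from 0.02 to 0.12, and that of probe 895 from -0.46 to -0.59. No Cand1 probe had 1 sign in all 4 experiments. In the NOS set no member was lower in both experiments, as 23.8% of probes were, and none had NMDA arrays wholly below the controls, as 4.6% had. In NOS experiment 2 all 3 were positive, as were 56.6% of all probes.

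**Figure D3:**
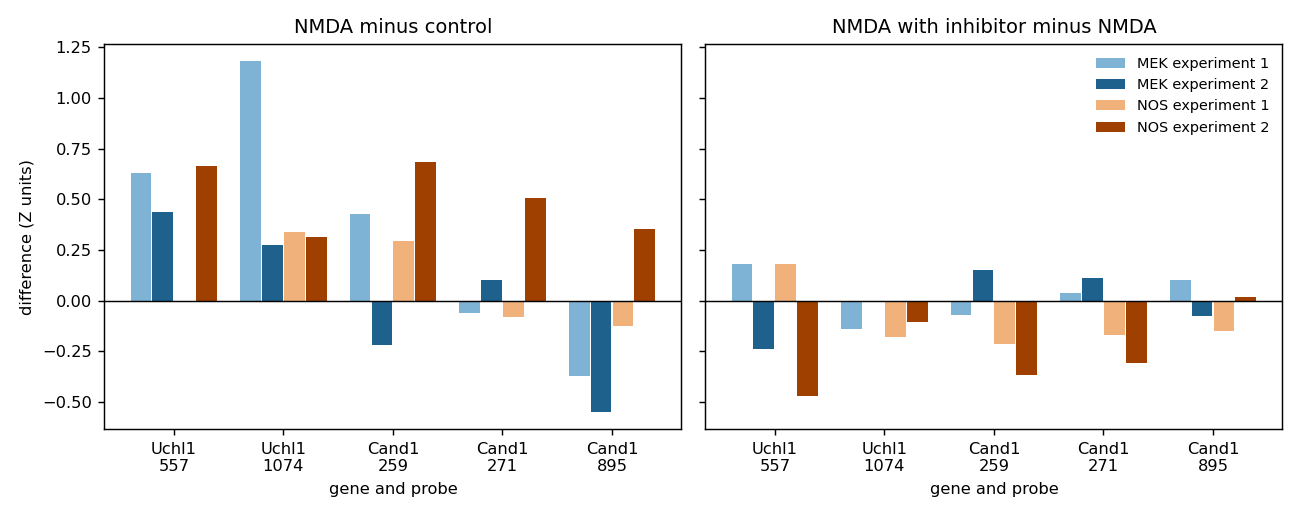
Differences in each of the 4 experiments for the 5 probes, in Z units, with NMDA minus control at left and NMDA with inhibitor minus NMDA at right (1 array per treatment and experiment). Uchl1 probe 1074 is above 0 in all 4 experiments at left and below 0 in all 4 at right, by 0.006 in MEK experiment 2, while the Cand1 probes change sign between experiments.

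PD98059 was compared with NMDA alone to ask what MEK inhibition did to the 2 genes in stimulated cultures (n = 2 arrays each). Neither gene changed past the threshold. The differences were -0.07 Z units for Uchl1 probe 1074 (95% interval -1.10 to 0.95), -0.03 for probe 557 (-1.29 to 1.23), 0.08 for Cand1 probe 271 (-0.44 to 0.60), 0.04 for probe 259 (-0.77 to 0.85) and 0.01 for probe 895 (-0.57 to 0.60). Each had an adjusted p = 0.9999 in limma. The spread behind these intervals was taken over both sets, so it also holds the shift between the NOS experiments. By experiment, probe 1074 was lower on both (-0.14 and -0.006), which was so for 12.5% of all probes, and probe 271 higher on both (0.04 and 0.11), as were 24.4%. The arrays of probe 271 did not overlap in that direction, as in 14.3% of probes, and no member's did in the other, as in 8.94%. Probe 557 changed sign (0.18 and -0.24), as did probe 259 (-0.07 and 0.15) and probe 895 (0.10 and -0.08). On Cand1 probe 895, both PD98059 arrays lay below both controls, as the NMDA arrays did. PD98059 minus control was -0.27 and -0.62 Z units in MEK experiments 1 and 2. Of all probes, 27.7% and 1.74% were lower still. The share of probes with PD98059 arrays wholly below the controls was not counted, and for NMDA arrays it was 20%. These controls include the moved array, so the gap is a description only. Limma called 0 of 1152 probes (0%) in this comparison, and 0 had an unadjusted p under 0.05. If nothing changed, a share near 0.05 would be found, so the p-values of this fit were too large. The lack of calls thus does not show that nothing changed.

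Nitroarginine was compared with NMDA alone in the NOS set to ask the same of nitric oxide synthase (n = 2 arrays each). Again neither gene changed past the threshold. The differences were -0.29 Z units for Cand1 probe 259 (95% interval -1.10 to 0.52), -0.24 for probe 271 (-0.76 to 0.28), -0.06 for probe 895 (-0.65 to 0.52), -0.14 for Uchl1 probe 557 (-1.40 to 1.11) and -0.14 for probe 1074 (-1.17 to 0.88), with an adjusted p = 0.998 in limma for each. All 5 differences were negative, as were 53.1% of all probes, though Cand1 probe 895 was at 0.08 with a running median along the rows removed, and 3 probes were lower in both experiments. The differences with either inhibitor subtract the same NMDA arrays whose difference from control chose the genes, so their signs are not independent of that choice. These were Cand1 probes 259 (-0.21 and -0.37) and 271 (-0.17 and -0.31) and Uchl1 probe 1074 (-0.18 and -0.11), a direction that 31.4% of all probes had in both. No member was higher in both, as 29.5% were. The arrays of all 5 overlapped, whereas they lay apart upward in 3.56% of probes and downward in 5.56%. Limma called 0 of 1152 probes (0%), and 1 had an unadjusted p under 0.05 (0.0868%). This share too is far below 0.05, so here also the lack of calls does not show that nothing changed. The intervals with either inhibitor rest on a spread per probe that is shared by all 6 rat groups. They thus hold the spread between the 2 experiments of both sets. On Uchl1 probe 557 the SD over the 2 arrays was 0.15 for MEK NMDA and 0.14 for PD98059. It was 1.02 for NOS control, 1.01 for nitroarginine and 0.55 for NOS NMDA. With experiment as a block the standard errors fell from between 0.23 and 0.56 to between 0.17 and 0.21, and no member was called, with an adjusted p = 0.956 in limma or higher.

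On Uchl1 probe 1074 the inhibitor array lay between the control and the NMDA array in each of the 4 experiments, with either inhibitor. This order in all 4 was met by 4 of 1151 probes (0.348%). It was noticed after the values were seen, it contains the NMDA difference for which the gene was chosen, and in MEK experiment 2 the inhibitor and NMDA arrays were only 0.006 Z units apart. With arrays quantile-normalized, NMDA minus control was 0.01 and nitroarginine minus NMDA -0.02 in NOS experiment 2, so the order did not hold there on that scale. Probe 557 of the same gene had this order in NOS experiment 2 and MEK experiment 2 and not in the other experiments.

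A list of other genes of ubiquitin metabolism, made from gene names and not complete, held 11 measured probes, 1 gene each, and none passed the threshold with either inhibitor (limma, 0 of 11). With PD98059, 7 were higher and 4 lower, with a median of 0.005 Z units against 0.02 over all probes. The differences farthest from 0 were those of Rnf146, a ubiquitin ligase, at -0.24, Uba3, a subunit of the enzyme that activates NEDD8, at -0.16, Fbxl4, an F-box protein, at 0.10, and Klhl28, a Kelch-like protein, at 0.07. With nitroarginine, 8 were higher and 3 lower, with a median of 0.09 against -0.01. Here Uba3 was at -0.30, Psmd14, the deubiquitinase of the proteasome lid, at 0.29, Fbxl4 at 0.28 and Rnf146 at -0.20. Each came mostly from NOS experiment 2. In NOS experiments 1 and 2, Uba3 was at -0.008 and -0.58 and Psmd14 at 0.06 and 0.51. Fbxl4 was at 0.12 and 0.44, and Rnf146 at -0.08 and -0.32. In NMDA against control 9 of 11 were higher in the MEK set (median 0.12, against 0.005 over all probes) and 5 in the NOS set (-0.09 against 0.02). In MEK experiment 2, which does not hold the moved column, 9 of 11 were higher with a median of 0.065. Of all probes 56.9% were higher there, with a median of 0.04. The 9 were not the same genes: Klhl28 and Rnf19a were lower in the set mean, and Rnf146 and Fbxl4 in experiment 2. For Cul5, the one cullin on the list, NMDA minus control was 0.12 and 0.38 Z units in the MEK and NOS sets, and the difference with inhibitor was 0.001 with PD98059 and -0.02 with nitroarginine. Its NMDA difference was 0.02 in NOS experiment 1 and 0.74 in NOS experiment 2.

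Likeness of pattern was taken as Pearson's r over the 12 rat arrays after the mean of each experiment had been removed, so it reads differences between arrays within experiments. With 1 array per treatment and experiment, treatment and whatever is particular to an array cannot be told apart in it. The points share their arrays and experiments, and r is given as a description. The Uchl1 probes had r = 0.806 with each other, and of 1150 other probes ranked by likeness, probe 1074 was at rank 64 for probe 557 and probe 557 at rank 105 for probe 1074. Without MEK experiment 1, which holds the moved column, it was 0.667 over 9 arrays. The Cand1 probes were less alike, with r = 0.548 between 259 and 271, 0.214 between 271 and 895, which share a sequence record, and 0.169 between 259 and 895. Probe 259 had r = 0.657 and 0.671 with Uchl1 probes 557 and 1074. Without MEK experiment 1 the order turned, with r = 0.690 between 259 and Cand1 probe 271 against 0.527 and 0.596 with the Uchl1 probes. The named probes most like Uchl1 probe 557 were Ptbp3 (0.941), Tpm1 (0.933) and Hspa8 (0.929), and those most like probe 1074 were Npr3 (0.967), Hsp90ab1 (0.961) and Strap (0.960), which fell to 0.839, 0.785 and 0.778 without MEK experiment 1. The Npr3 probe is the row next to it on the array. For Cand1 they were Pgk1 (0.955), COX3 (0.941) and Arf3 (0.914) for probe 259, Col1a2 (0.882), Hnrnpa1 (0.869) and Cyp51 (0.839) for probe 271, and Rraga (0.927), Htt (0.919) and Dpysl5 (0.867) for probe 895.

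In mouse cortex both Uchl1 probes were higher, and all 3 Cand1 probes lower, in the nNOS knockout than in the wild type, with 1 array per genotype and so no test. Uchl1 probe 557 was at 0.67 Z units in the knockout and 0.25 in the wild type, and probe 1074 at 1.51 and 1.32. Cand1 was at -0.998 and -0.85 on probe 259, 0.25 and 0.35 on probe 271, and 1.26 and 1.44 on probe 895. The difference of 0.42 on Uchl1 probe 557 exceeded that of 98.7% of all probes. The other 4, at 0.19 for Uchl1 probe 1074 and -0.15, -0.10 and -0.19 for Cand1, lay within 1 SD of the differences over all probes (0.199). Past that SD lay 1 of 5 members and 26.8% of all probes, and 50.6% of probes were higher and 49.4% lower in the knockout. The difference of 2 single arrays has no replicate check. The annotation names rat genes, and how well these probes read mouse transcripts was not tested.

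**Figure D4:**
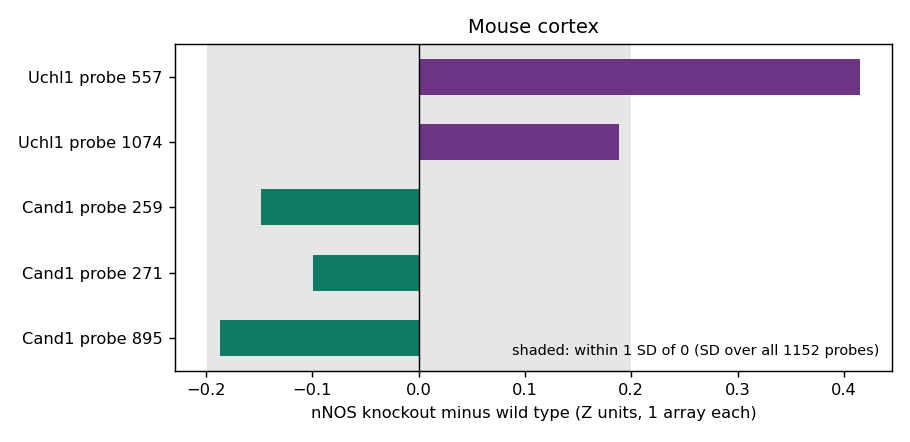
Knockout minus wild type for the 5 probes in mouse cortex, in Z units, from 1 array per genotype. The shaded band spans 1 SD (0.199) of the same difference over all 1152 probes, and only Uchl1 probe 557, at 0.42, lies outside it.

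Against the rat cultures, the adult mouse cortex arrays lay within the range of the 12 rat arrays on Uchl1 probes 557 and 1074 and on Cand1 probe 271. On Cand1 probe 895 they were near its upper end (rat maximum 1.29) and on probe 259 near its lower end (rat minimum -0.96), so the Cand1 probes gave no common direction. Both mouse arrays lay above all rat arrays on 6.78% of probes and below on 6.08%, and no member was among these. For probe 259 this rests on the moved control array, which gave the rat minimum. The lowest value among the other rat arrays was -0.64, and both mouse arrays (-0.998 and -0.85) lay below it. Species, age and tissue differ together here and cannot be told apart.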

How the data were processed

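The authors' deposited values are scores: every array has a mean of 0 and most an SD near 1 (0.857 to 0.999), so they were taken as Z-scores within arrays, and no source used here states how they were made. Groups and experiment numbers came from the sample titles. The members and gene lists were chosen with earlier results of these data known. The control column of MEK experiment 1 was moved down by 1 row, which leaves probe 1 without a value on that array. Of 1152 probes, 384 had 1 gene symbol, 6 had several and 762 none, in an old annotation.

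Values of the 12 rat arrays were fitted with limma 3.58.1 (R 4.3.3) as 6 group means with 6 residual degrees of freedom, using moderated two-sided tests and Benjamini-Hochberg adjustment over all probes at 0.05. This test had been designed for the deposited scale, with the misplaced control column in its moved position, and was checked on simulated data. The simulated data held independent noise around each probe's mean, sized by the MEK NMDA and PD98059 arrays, and no shift like that between the NOS experiments. The check is thus no evidence that the test finds changes under such a shift. Mouse arrays stayed out of it. Named genes were the members, the 4 ubiquitin genes farthest from 0 per inhibitor, and the 3 most alike named probes per member. Naming Cul5 was decided after its values were seen. Other steps used Python 3.11.15.

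The titles number the experiments within each set, which pairs the arrays. Arrays of one number deviated together from their groups in the NOS set (r = 0.874 to 0.930) and not in the MEK set (-0.145 to 0.073). The design without a block was kept. Alternatives were a replicate block, the column as deposited, the block without the moved array, quantile normalization, removal of a running median over 25 probes, trended robust moderation, the brighter probes only, and each array left out.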

Additional observations from a re-analysis of the deposited data

How the results depend on the processing

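The count of probes called by limma was 0 for PD98059 and 0 for nitroarginine in the fit as designed and in each of 22 alternatives (0 to 47 and 0 to 74 probes at an unadjusted p under 0.05), of which the column as deposited with a block, the crossed block, and the moved array left out together with NOS experiment 2 were chosen after seeing the data. With experiment as a replicate block it was 0 and 0, with 5 and 42 probes at an unadjusted p under 0.05, and with the PD98059 arrays crossed between experiments 0 and 0, with 6 and 42. The block ended or made no call on any member. No member passed under any alternative, with an adjusted p of 0.655 to 1 in limma. Directions of the PD98059 differences turned for Uchl1 probe 557 with quantile normalization (0.047 Z units) and for Cand1 probe 895 with a running median removed (-0.020). Those of nitroarginine turned for Cand1 probe 895 with a running median removed (0.075) and for Uchl1 probe 557 without the moved array and NOS experiment 2 (0.18). The cause was not tested. With 1 array left out at a time, the PD98059 difference ran from -0.016 to 0.095 (probe 259), 0.051 to 0.10 (271), -0.057 to 0.080 (895), -0.14 to 0.078 (557) and -0.19 to 0.043 (1074). The nitroarginine difference ran from -0.71 to 0.13 (259), -0.43 to -0.046 (271), -0.35 to 0.22 (895), -0.86 to 0.57 (557) and -0.57 to 0.29 (1074). With 1 array left out the lone array of that group was assumed to vary like the other groups, and its contrast also holds the difference between experiments. Among the brighter probes only, Cand1 probes 259 and 271 were not tested. Signal over background is unknown, so what dimness limits cannot be said.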
